A study of Mus musculus with 12 samples.

Results

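ZBTB16, which encodes the transcription factor PLZF, was followed through 12 RNA sequencing libraries of mouse CD4+ T cells, in total RNA and in heavy polysomes. It is 1 row of the 26485 gene rows in the deposited count table, found by its symbol, and 1 row in all carries that name. The gene was chosen because of its difference between the study's arms in total RNA, so that difference and every comparison that uses the total RNA libraries are given as descriptions without a test. The heavy polysome libraries are separate libraries, and the comparison between arms within them was tested. That test is not independent of the choice, since the gene was taken up with results of both fractions at hand and same-numbered OA libraries of the 2 fractions deviated together (correlations 0.669, 0.138 and 0.312 over genes).

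PLZF belongs to the BTB zinc finger family, whose members bind DNA through zinc fingers and recruit corepressors through a BTB domain. In mice it directs the development of innate-like T cells such as natural killer T cells, which leave the thymus ready to secrete cytokines, and conventional CD4 T cells carry little of it. The gene is also known as a direct target of the glucocorticoid receptor in several human and mouse tissues.

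The cells came from C57BL/6 mice that had been immunised with AOV alum and then received, by mouth each day for 7 days, either vehicle or 25 mg/kg of 4EGI-1, a compound that blocks the binding of the cap-binding factor eIF4E to eIF4G. All groups thus share strain, immunisation and a sort on CD4 and CD45. Each arm has 3 libraries of total RNA (input) and 3 of RNA from the part of a sucrose gradient that holds transcripts with many ribosomes (heavy), all prepared with polyA selection. What OA and 4E stand for is not written in the labels. OA was read as the vehicle arm and 4E as the inhibitor arm, and OA is subtracted from 4E throughout. Separate animals are not named for the replicates, so errors and p-values describe the spread among these libraries alone, and that spread may be technical.

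Each library held 691449 to 1906657 reads in genes. Small noncoding RNAs, chiefly 7SL, the RNA of the signal recognition particle, made up 33.6% of these in OA input replicate 1, 71% and 74.9% in the other OA input libraries, 75.1% to 78.3% in 4E input, and 3.14% to 16.9% in heavy libraries. The unit of every level is CPM, the usual counts-per-million scale of a gene's reads over all gene reads, after TMM scaling, which corrects for such differences in composition. Row names follow human style, 16137 of them match a mouse symbol when case is ignored, and 27 rows named for human HLA genes held 35404 reads. Levels are therefore compared between libraries and not between genes. The T cell label was met by the kinase LCK (5355 counts over all libraries), ZAP70 (3132) and CD3E (935), while CD4 itself held 100 counts and CD3D 0. PTPRC (CD45), on which the cells were also sorted, held 8791. With 0 counts over all libraries a gene could still hold 0.219 CPM of the gene reads.

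ZBTB16 reads were present in every library, 28 to 157 of them, so that counting error is a visible part of each value. In total RNA its level was 35.7 CPM in OA replicate 1 (95% exact binomial interval 28.8 to 43.9, from 91 reads), 45.1 CPM in replicate 2 (30.0 to 65.2, from 28 reads) and 60.9 CPM in replicate 3 (42.6 to 84.3, from 36 reads). In 4E it was 144 CPM in replicate 1 (112 to 183, from 67 reads), 126 CPM in replicate 2 (95.4 to 164, from 56 reads) and 131 CPM in replicate 3 (100.2 to 169, from 60 reads). All 4E input libraries lay above all OA input libraries, and the lowest 4E value was 2.07 times the highest OA value. These intervals cover counting error only.

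The OA input mean was 47.2 ± 12.7 CPM, and the 4E input mean was 134 ± 9.31 CPM (SD, n = 3). The fitted log2 change was 1.54 (SE 0.29), the 92nd highest of the 7465 genes tested, whose median log2 change was -0.05. In this comparison 6.28% of tested genes had each 4E library above each OA library and 7.41% had each below. At the threshold of 0.05 on adjusted p, edgeR called 0% of genes. Before adjustment 10.5% were below that value, and 3 genes were called by DESeq2. Because ZBTB16 was chosen from this comparison, its place in it is no finding. In a bulk sample, more cells that carry a transcript and more transcript per cell cannot be told apart.

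In heavy polysomes ZBTB16 was higher in 4E by a smaller margin, and the difference did not pass the test. Its level was 40.5 CPM in OA replicate 1 (34.4 to 47.4), 63.9 CPM in replicate 2 (52.8 to 76.7) and 70.3 CPM in replicate 3 (57.8 to 84.7). In 4E it was 87.6 CPM in replicate 1 (73.8 to 103), 79.5 CPM in replicate 2 (66.4 to 94.5) and 123 CPM in replicate 3 (104 to 146). The 4E libraries again lay above the OA libraries without overlap, though the counting intervals of OA replicates 2 and 3 overlap those of 4E replicates 1 and 2.

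The OA heavy mean was 58.2 ± 15.7 CPM and that of 4E 96.8 ± 23.4 CPM (SD, n = 3), with a log2 change of 0.74 (SE 0.27). The edgeR quasi-likelihood test over all 7465 genes gave an unadjusted p of 0.0119 and an adjusted p of 0.569. DESeq2 gave a log2 change of 0.70 (SE 0.29). An exact two-sided permutation test of the CPM values gave p = 0.1, the smallest that 3 against 3 libraries allow. Among all tested genes 8.99% had each heavy 4E library above each OA library, and 8.12% had each below. In both fractions 1.69% were separated upwards, as ZBTB16 was. That share does not measure how rare ZBTB16 is, since its separation in input came with the choice of the gene. Of the 469 genes separated upwards in input, 126 were so in heavy too. In heavy 0% of genes were called by edgeR, 8.2% were under 0.05 before adjustment, and 1 gene was called by DESeq2. ZBTB16 was 408th of 7465 in log2 change.

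On the TMM scale OA replicate 1 held the lowest ZBTB16 level of its arm in both fractions, whereas without TMM it was the highest of its arm in input (48.0 CPM) and the lowest in heavy (82.3 CPM). It was also the replicate with the smallest share of small noncoding RNA in both. Without it in both fractions the log2 change between arms was 1.33 (SE 0.28) in input and 0.49 (SE 0.23) in heavy. 4E heavy replicate 3, whose label holds the word ReSubmission, had the highest ZBTB16 level among heavy libraries, and without it the heavy log2 change was 0.53 (SE 0.29).

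**Figure D1:**
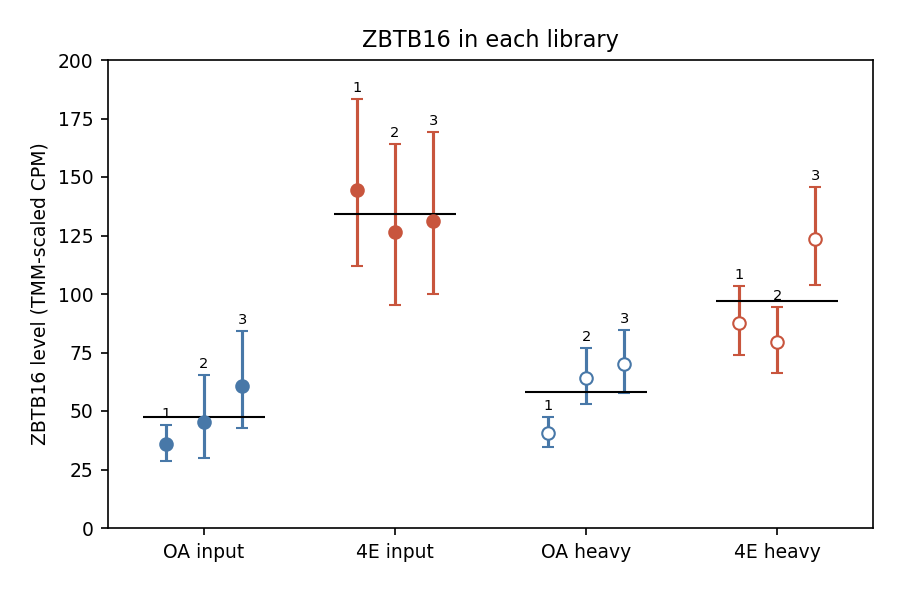
ZBTB16 level in CPM after TMM scaling (y axis) for each of the 12 libraries in 4 groups (x axis). Points are libraries with their replicate number, bars are 95% exact binomial intervals of the counts, and horizontal lines are group means (47.2, 134, 58.2 and 96.8 CPM); the 4E points lie above the OA points in each fraction.

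Because the input libraries differ so much in composition, ZBTB16 was also set against quantities within the same library. In CPM with no TMM scaling, OA input replicates 1, 2 and 3 stood at 48.0, 21.7 and 34.2, and those of 4E input at 66.6, 51.9 and 59.3. The arms still did not overlap, and the ratio of means was 1.71, against 2.84 with TMM. Without TMM the median gene itself shifted by -0.92 on the log2 scale in input, by -0.18 in heavy, by 1.23 between heavy and input in OA and by 1.96 in 4E. Relative to that median the ZBTB16 change in input was 1.68, against 1.59 with TMM, and in heavy 0.75, against 0.74.

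With small noncoding RNA left out of the total, ZBTB16 stood at 92.1 ± 23.3 CPM in OA input against 253 ± 14.5 in 4E input (SD, n = 3), a ratio of 2.74. In heavy the same measure was 120 ± 30.6 and 189 ± 45.9, a ratio of 1.58.

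The next denominator was the summed counts of the CD4 T cell marker list. Its member with the most counts, PTPRC (CD45, 8791 counts), is not particular to T cells. The ratio is therefore no measure of ZBTB16 per unit of T cell transcript. OA input held 24.2, 44.6 and 54.1 ZBTB16 counts per 1000 marker counts in replicates 1, 2 and 3. The 4E input libraries held 119, 111 and 124. The arms did not overlap and their means stood in a ratio of 2.88. In heavy polysomes OA held 26.4, 56.7 and 64 per 1000 and 4E held 60.8, 60.9 and 98.2. Here the arms overlapped, since OA replicate 3 lay above 4E replicates 1 and 2, and for the ratio of 1.5 the two-sided exact permutation test returned p = 0.3. Against the counts of the other BTB zinc finger genes the ratio was 2.69 in input and 1.67 in heavy, where the arms did not overlap (exact permutation p = 0.1).

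**Figure D2:**
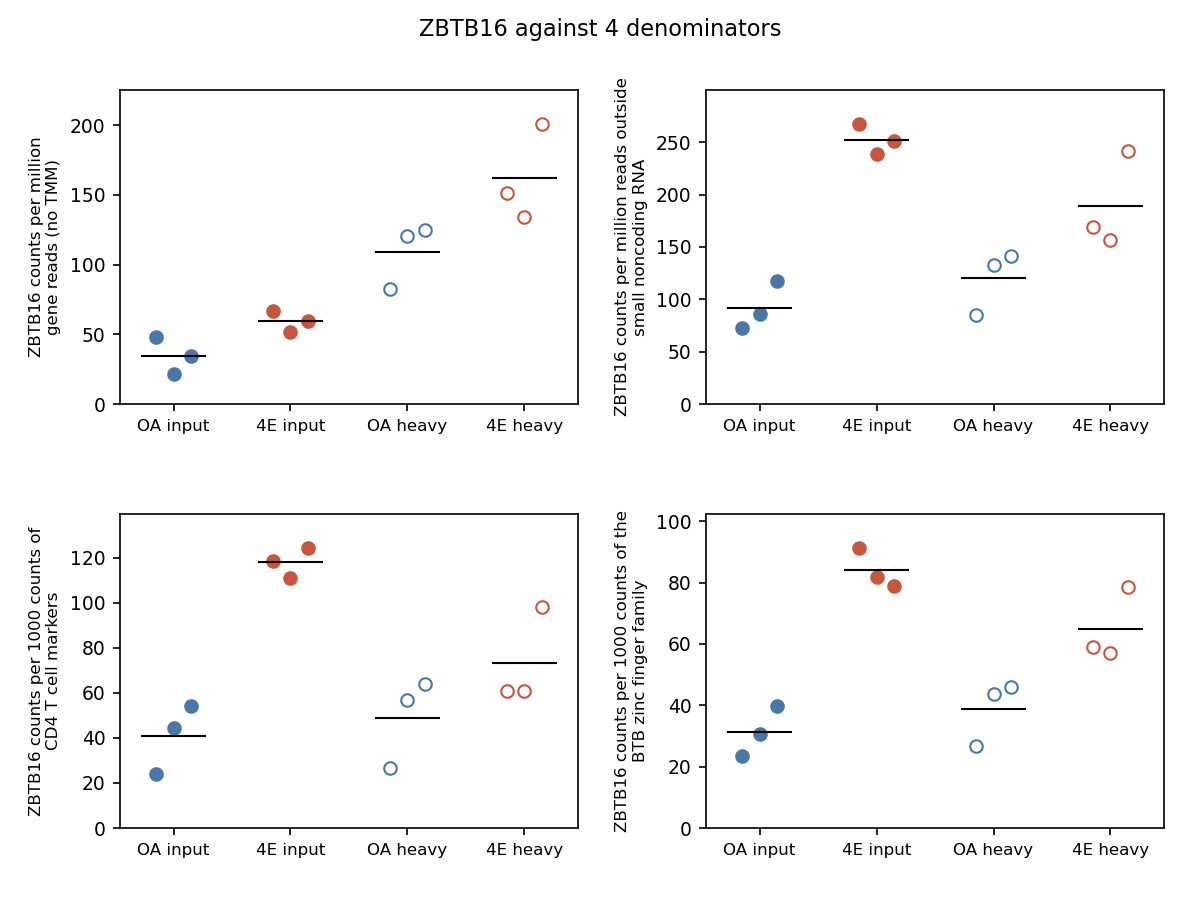
ZBTB16 counts in each library (points) divided by 4 quantities of the same library (y axes: CPM with no TMM, CPM of reads outside small noncoding RNA, per 1000 CD4 T cell marker counts, per 1000 counts of the BTB zinc finger family), by group (x axes), with group means as lines. The arms are apart in input on all 4 scales, and in heavy on all but the T cell marker scale, where OA reaches 64 and 4E begins at 60.8.

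Heavy polysome RNA was then set against total RNA of the same arm, a comparison of how a transcript is distributed relative to other genes. All values here use the input libraries from which the gene was chosen and are descriptions. In OA the heavy level was 1.13, 1.42 and 1.15 times the input level in replicates 1, 2 and 3, and in 4E it was 0.607, 0.630 and 0.940 times. ZBTB16 was thus relatively higher in heavy than in input in each OA pair and lower in each 4E pair. The fitted log2 change from input to heavy was 0.33 (SE 0.28) in OA and -0.47 (SE 0.27) in 4E, and the difference between these was -0.80 (SE 0.39). The corresponding medians of all tested genes were 0.01, 0.04 and 0.05.

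The direction in 4E depended on the scaling: without TMM the log2 change from input to heavy was 1.64 in OA and 1.45 in 4E, and -0.19 for their difference. Relative to the median gene on that scale it was 0.41 in OA and -0.51 in 4E. Leaving out OA input replicate 1 lowered the OA value to 0.12, and leaving out OA heavy replicate 3 lowered it to 0.17. It was 0.54 without OA input replicate 3 and 0.54 without OA heavy replicate 1.

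In the authors' deposited table ZBTB16 has a log2 fold change of 1.48 in the transcriptome and 0.72 in the translatome, and is classed as transcription alone with 641 of the 11228 rows. The adjusted p in the authors' deposited table is 0.363 for the transcriptome value and 0.667 for the translatome value, both above 0.05. The class therefore does not mean that the transcriptome value passed that threshold. ZBTB16 was chosen for its difference in total RNA, so the first of these is no test of it.

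The BTB zinc finger family was examined to see whether other members moved with ZBTB16. The family list holds 47 other genes, all of them in the table, and 36 passed the filter on low counts. None of the 36 passed the edgeR test in either fraction. Counts of higher and lower genes here and for the lists that follow are on the TMM scale; without TMM the median of this list in input was -0.95 and those of the partner and upstream lists described next were -0.88 and -0.60, beside -0.92 over all genes. In input 16 were higher and 20 lower in 4E, with a median log2 change of -0.02 against -0.05 over all tested genes. In heavy the numbers were again 16 and 20, with a median of -0.09 against 0. The log2 change of ZBTB16 was above that of all 36 in input, which is no finding, since it was chosen from that comparison. The highest of the 36 in input was ZBTB47 (log2 change 1.31, SE 0.96, on 80 counts). In heavy ZBTB16 was above 35 of 36, and HIC2 (log2 change 1.30, SE 0.82) lay above it on 139 counts. The place of ZBTB16 in heavy is not independent of its choice either.

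ZBTB7B, the factor ThPOK that fixes the CD4 lineage, had 93.5 ± 20.2 CPM in OA input against 126 ± 17.9 in 4E (SD, n = 3, log2 change 0.42, SE 0.23). Each of its 4E libraries lay above each OA library in both fractions, with a heavy log2 change of 0.13 (SE 0.21, edgeR adjusted p = 0.869). BCL6, the repressor that specifies T follicular helper cells, went the other way, at 79.7 ± 13.7 and 56.6 ± 13.6 CPM in input and 82.1 ± 8.48 and 54.0 ± 8.74 CPM in heavy, with each 4E library below each OA library in both fractions (heavy log2 change -0.61, SE 0.24, edgeR adjusted p = 0.569). Neither gene passed the test.

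Some of the other family members that were lower in both fractions are named after their values were seen. They are not all of the larger negative changes: ZBTB48, for example, had -2.15 (SE 0.89) in input and -0.26 (SE 0.61) in heavy. ZBTB33 had -1.97 (SE 0.86) in input and -1.77 (SE 0.71) in heavy, where each 4E library lay below each OA library (edgeR adjusted p = 0.569). ZBTB38 had -1.05 (SE 0.62) and -1.0 (SE 0.50), and MYNN -0.14 (SE 0.36) and -0.66 (SE 0.32). ZBTB20, a regulator in B cells and other tissues, had log2 changes of 0.13 (SE 0.24) in input and 0.22 (SE 0.22) in heavy. ZBTB10 had 0.26 (SE 0.22) and 0.16 (SE 0.21), and ZBTB11 -0.20 (SE 0.21) and -0.25 (SE 0.19). ZBTB49, the member of smallest p in input, had 0 counts in the 3 4E input libraries and a mean of 5.88 CPM in OA, below the 6.46 to 6.77 CPM that a count of 0 allows in 4E, so no fold is given.

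PLZF represses through corepressor complexes, and genes of these partners were listed next. Of 23 listed genes 20 were tested and 0 passed in either fraction. In input 10 were higher and 10 lower in 4E, with a median log2 change of 0. In heavy 11 were higher and 9 lower (median 0.04). The corepressor NCOR1 measured 574 ± 53.5 CPM in OA input against 599 ± 33.3 in 4E (SD, n = 3), a log2 change of 0.06 (SE 0.19). CUL3, a ubiquitin ligase scaffold that PLZF binds in mouse natural killer T cells, had log2 changes of -0.18 (SE 0.23) in input and -0.23 (SE 0.22) in heavy. EP300, an acetyltransferase that acts on PLZF in human cells, had -0.04 (SE 0.20) and 0.01 (SE 0.20).

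HDAC2, a histone deacetylase of corepressor complexes, had the smallest p of this list in input (42.1 ± 4.37 CPM for OA, 17.5 ± 14 for 4E, SD, n = 3, log2 change -1.27, SE 0.49). RARA, the retinoic acid receptor fused to PLZF in a human leukaemia, had the smallest p in heavy, where OA stood at 76.1 ± 9.16 CPM and 4E at 123 ± 5.94 (SD, n = 3). Its heavy log2 change was 0.69 (SE 0.23, edgeR adjusted p = 0.569). Its input values were close, 103 ± 29.8 and 110 ± 19.7 CPM.

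Genes that act upstream of PLZF in T cell development gave a mixed picture. Of 25 listed 19 were tested and 0 passed in either fraction, with 12 higher and 7 lower in input (median log2 change 0.20) and 9 higher and 10 lower in heavy (median -0.02). EGR2, which is needed for PLZF induction in mouse natural killer T cells, stood at 18.2 ± 10.4 CPM in OA and 8.80 ± 0.206 in 4E input (SD, n = 3, log2 change -1.11, SE 0.60), and its heavy log2 change was -0.84 (SE 0.51, edgeR adjusted p = 0.668), with overlapping groups in both.

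ETS1, a transcription factor of lymphocytes, had log2 changes of 0.20 (SE 0.19) in input and -0.10 (SE 0.19) in heavy, and the kinase FYN -0.30 (SE 0.20) and -0.14 (SE 0.20). The adaptor SH2D1A (SAP), which joins SLAM receptors to FYN, held 23 counts over all libraries, SLAMF1 28 and SLAMF6 40, and none of these was tested.

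Most effector genes of innate-like T cells held too few counts to test. Of 30 listed genes 12 were tested. In all libraries 8 were at 0, among them IL4, IL13, IFNG and IL17A, the cytokines of these cells, and KLRB1. CD3D was also at 0 in these T cells, so a count of 0 does not show that a transcript was absent. Neither fraction had a member that passed, with 3 higher and 9 lower in input (median log2 change -0.19) and 5 higher and 7 lower in heavy (median -0.09). The chemokine receptor CXCR6 held 30 counts over all libraries and the costimulator ICOS 20.

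Among the tested effector genes, transcription factors of T helper and innate lymphoid lineages had smaller log2 changes than ZBTB16 in both fractions. In input that is no finding, since ZBTB16 was chosen from that comparison, and in heavy it is not independent of the choice. GATA3 measured 66.1 ± 25.6 CPM in OA input against 65.5 ± 17.0 in 4E (SD, n = 3), a log2 change of -0.06 (SE 0.33). MAF had log2 changes of -0.14 (SE 0.26) in input and -0.11 (SE 0.25) in heavy, TBX21 (T-bet) -0.16 (SE 0.58) and 0.09 (SE 0.51), and RORA -0.30 (SE 0.23) and 0.32 (SE 0.21). ID2, an inhibitor of E proteins that innate lymphoid cells require, was the member of smallest p in input, at 48.1 ± 34.6 and 92.9 ± 24.2 CPM (SD, n = 3, log2 change 1.01, SE 0.41), with overlapping groups. The calcium-binding protein gene S100A4 had the smallest p in heavy (log2 change -1.54, SE 0.86, edgeR adjusted p = 0.649).

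Because ZBTB16 is itself induced by glucocorticoids, other genes known for that response were listed. Of 29 genes 24 were tested and 0 passed in either fraction. In input 7 were higher and 17 lower in 4E (median log2 change -0.14), and in heavy 10 were higher and 14 lower (median -0.08). FKBP5, a chaperone that restrains the glucocorticoid receptor, was at 42.0 ± 5.84 CPM in OA input against 27.9 ± 9.43 in 4E (SD, n = 3, log2 change -0.57, SE 0.36), with each 4E library below each OA library. TSC22D3 (GILZ) measured 439 ± 40.2 and 399 ± 35.7 CPM in input and 371 ± 98.1 and 255 ± 6.97 CPM in heavy (heavy log2 change -0.54, SE 0.21, edgeR adjusted p = 0.569).

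The clock gene PER1 had log2 changes of 0.05 (SE 0.20) in input and 0.21 (SE 0.20) in heavy, and NFKBIA, the inhibitor of NF-kB, -0.06 (SE 0.19) and -0.03 (SE 0.19). BTG1, an antiproliferative gene, had -0.44 (SE 0.33) and -0.44 (SE 0.32). The factor KLF13 had the smallest p of the list in input (162 ± 11.5 and 229 ± 17.0 CPM, SD, n = 3, log2 change 0.50, SE 0.20) and PIK3IP1, an inhibitor of PI3 kinase, in heavy (55.2 ± 12.9 and 90.1 ± 12.5 CPM, log2 change 0.72, SE 0.26, edgeR adjusted p = 0.569).

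Genes of naive and resting T cells, of which 14 of 16 were tested, had 5 higher and 9 lower in input (median log2 change -0.06), 6 higher and 8 lower in heavy (median -0.19), and 0 that passed. LEF1, a factor of naive T cells, had the smallest p in both fractions, at 287 ± 6.19 and 435 ± 23.2 CPM in input and 256 ± 17.3 and 363 ± 15.5 CPM in heavy (SD, n = 3). Its log2 changes were 0.60 (SE 0.18) and 0.50 (SE 0.17, edgeR adjusted p = 0.569), with no overlap of the arms in either fraction. SATB1, a chromatin organiser of T cells, had 0.23 (SE 0.21) and 0.15 (SE 0.21), and FOXP1 -0.06 (SE 0.22) and 0.20 (SE 0.21).

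**Figure D3:**
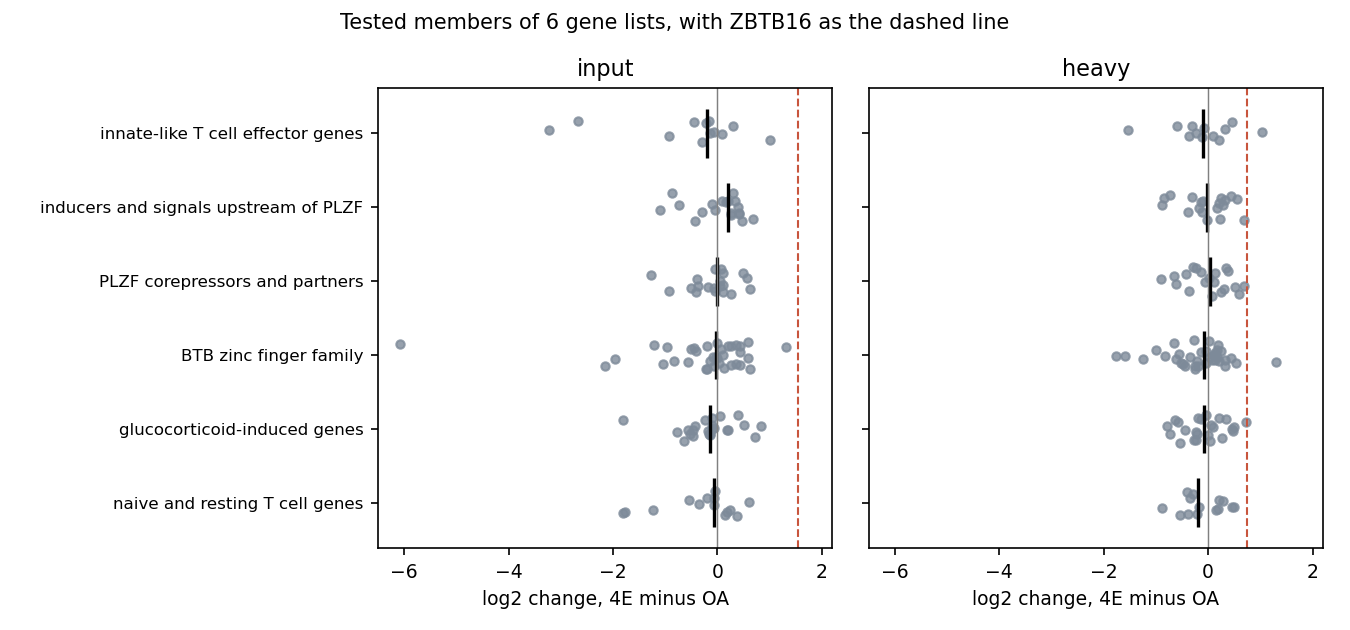
Log2 change between arms, 4E minus OA (x axes), of each tested member (points) of 6 gene lists (rows) in input and in heavy, with list medians as black bars and ZBTB16 as the dashed line at 1.54 and 0.74. List medians lie between -0.19 and 0.20. No listed gene reaches the ZBTB16 line in input, the comparison from which ZBTB16 was chosen.

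Markers of other cells were read beside ZBTB16. The sort on CD4 and CD45 would be expected to remove stromal cells and mature red cells. Of 25 genes of natural killer, innate lymphoid and gamma-delta T cells 22 were in the table, 4 were tested and 0 passed. In all libraries 7 were at 0 (NCR1, KLRB1, KLRK1, KLRD1, KLRC1, XCL1 and CD8B). Since CD3D was at 0 too, these zeros do not show absence. Their summed level spanned 40.5 to 69.3 CPM in OA input and 40.9 to 89.7 in 4E input, and 53.4 to 84.3 CPM in OA heavy and 40.7 to 71 in 4E heavy, so the arms overlapped in both fractions. EOMES had log2 changes of 0.53 (SE 0.63) and -0.33 (SE 0.55), the kinase BLK 0.91 (SE 0.62) and -0.14 (SE 0.54), and the receptor KIT -0.24 (SE 1.14) and -1.41 (SE 0.84).

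The summed level of stromal and endothelial genes was lower in each 4E library than in each OA library in both fractions, and that of myeloid genes in heavy only. By gene, 1 of 5 tested stromal and endothelial genes was separated in this way in input (COL3A1). In heavy 3 were (COL1A1, COL3A1 and THY1). Of 3 tested myeloid genes the numbers were 1 and 2. Over all tested genes the shares were 7.41% in input and 8.12% in heavy. The summed level of 12 stromal and endothelial genes was 86 to 565 CPM in OA input and 42.9 to 58.2 in 4E input, and 75.6 to 514 CPM in OA heavy and 27.1 to 45.3 in 4E heavy. Red cell and platelet genes summed to 78.9 to 370 CPM in OA input and 36.6 to 184 in 4E input, and to 56.8 to 558 and 32.7 to 101 CPM in heavy. Myeloid genes summed to 30.4 to 62.9 CPM in OA input and 19.4 to 54.7 in 4E input, and to 46.7 to 96.5 and 14.8 to 29.3 CPM in heavy. The red cell sums overlapped in both fractions, the myeloid sums in input. B cell genes overlapped as well, at 76.6 to 191 and 129 to 254 CPM in input and 65.6 to 231 and 78.3 to 283 CPM in heavy. Of 5 tested stromal and endothelial genes 1 was higher and 4 lower in 4E in each fraction. THY1, 1 of the 4 lower (log2 changes -1.09, SE 1.10, and -1.51, SE 0.90), is also carried by mouse T cells. It is therefore no stromal marker here, although the counts and sums given for this list include it. Of 3 myeloid genes 1 was higher in input and 0 in heavy. Of 2 red cell and platelet genes 0 were higher in input and 1 in heavy, and of 4 B cell genes 3 were higher in each fraction. The collagen COL3A1 had log2 changes of -5.25 (SE 1.20) and -4.64 (SE 0.88), the granule enzyme MPO -3.33 (SE 1.05) and -4.13 (SE 0.79), and the globin HBB -1.56 (SE 0.80) and -2.37 (SE 0.77). COL3A1 and MPO each held 2 counts in all of 4E input, below the 6.46 to 6.77 CPM that a count of 0 allows there. In 4E heavy COL3A1 held 9 counts and MPO 6. The size of the COL3A1 and MPO changes is therefore poorly fixed. Among the other tested members, the endothelial PECAM1 had 0.19 (SE 0.84) and 0.16 (SE 0.66), the myeloid factor SPI1 0.68 (SE 0.90) in input but -2.02 (SE 0.83) in heavy, and the platelet integrin ITGA2B -0.44 (SE 0.56) in input and 0.23 (SE 0.47) in heavy. EBF1, a B cell factor, had 0.72 (SE 0.54) and 0.63 (SE 0.50). Of the tested genes of these 4 lists (5, 2, 3 and 4) 0 passed in either fraction, and their part in the ZBTB16 difference was not tested.

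The CD4 T cell markers themselves did not separate the arms as a list. Of 15 genes 12 were tested, with 4 higher and 8 lower in input (median log2 change -0.21), 5 higher and 7 lower in heavy (median -0.19), and 0 that passed. Their summed level was 1012 to 1479 CPM in OA input and 1055 to 1217 in 4E input, and 1097 to 1534 CPM in OA heavy and 1256 to 1439 in 4E heavy. LCK had log2 changes of 0.25 (SE 0.20) and 0.39 (SE 0.20), and PTPRC -0.52 (SE 0.27) and -0.16 (SE 0.27). ZAP70, the kinase recruited to the T cell receptor, had 0.59 (SE 0.23) and 0.57 (SE 0.22). Lower in both fractions were CD28 at -1.22 (SE 0.54) and -0.87 (SE 0.44), CD3E at -1.16 (SE 0.79) and -0.77 (SE 0.64), and CD40LG at -0.88 (SE 0.84) and -0.72 (SE 0.70). CD4 held 29 counts in OA input and 0 in 4E input, too few for a fold. On the TMM scale the highest marker sums in both OA fractions belong to replicate 1, where ZBTB16 was lowest on that scale.

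The genes whose levels followed ZBTB16 most closely over the 12 libraries were named by Pearson's r of log2 CPM among the other 7464 tested genes, whose median r was -0.07. These libraries share depth, composition and arm, so r is a description. PRKCH, a protein kinase C of T cells, had r = 0.949, the histone H3K27 demethylase KDM6B 0.941, the endosomal adaptor APPL2 0.935, the Polycomb-associated PHF1 0.925 and the spliceosome factor TFIP11 0.925. All 5 were higher in 4E than in OA in both fractions, with smaller log2 changes than ZBTB16. This is no finding, since the 5 were picked for likeness and ZBTB16 for its input change.

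KDM6B measured 1003 ± 225 CPM in OA input against 1602 ± 101 in 4E, and 1087 ± 319 and 1565 ± 223 CPM in heavy (SD, n = 3). PRKCH measured 394 ± 73.9 and 552 ± 25.0 CPM in input and 400 ± 30.8 and 520 ± 37.2 CPM in heavy, with a heavy log2 change of 0.38 (SE 0.19, edgeR adjusted p = 0.613). For KDM6B the heavy log2 change was 0.53 (SE 0.24, edgeR adjusted p = 0.592) and for PHF1 0.59 (SE 0.24, edgeR adjusted p = 0.569). APPL2 rested on 396 counts in all. None of the 5 passed the test in either fraction.

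**Figure D4:**
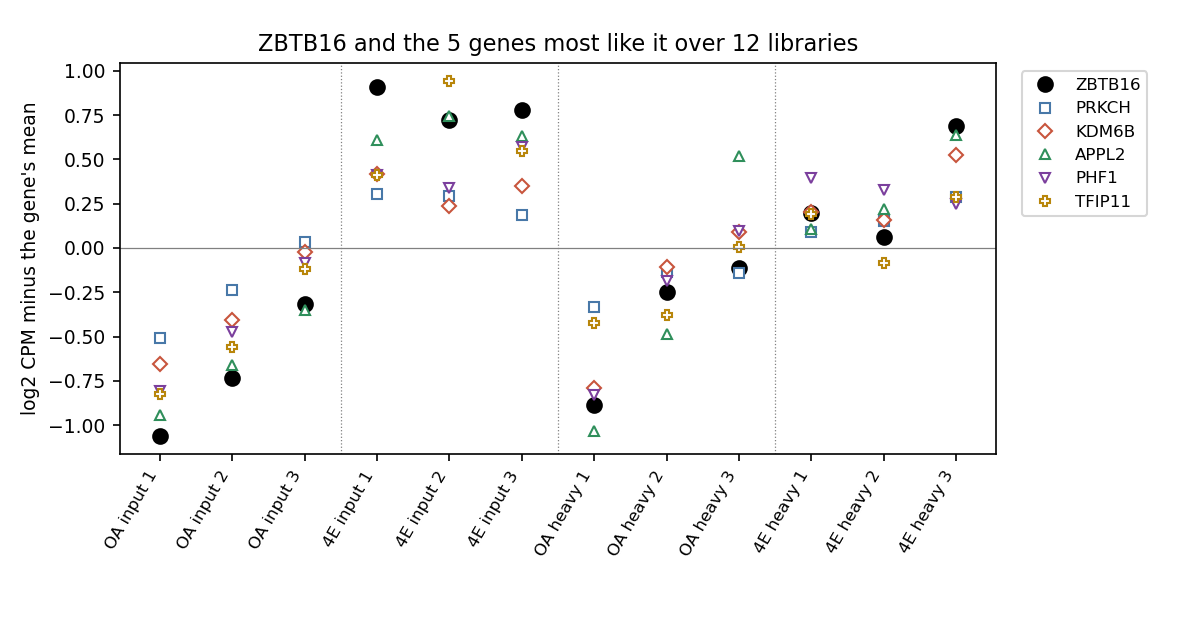
Log2 CPM of ZBTB16 (filled circles) and of the 5 genes with the highest Pearson r to it (open symbols), each less its own mean over the 12 libraries (y axis), by library (x axis). The 4E input libraries stand highest for ZBTB16, OA replicate 1 is lowest for ZBTB16 in both fractions on this TMM scale, and r runs from 0.925 to 0.949.

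The direction of the ZBTB16 difference between arms was the same under all 20 alternative fits in both fractions. The input log2 change spanned 0.76, without TMM, to 1.76, without OA input replicate 3. The heavy log2 change spanned 0.49 to 0.89 and passed the threshold in 0 of 20 fits, with adjusted p from 0.118 to 0.999.

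**Figure D5:**
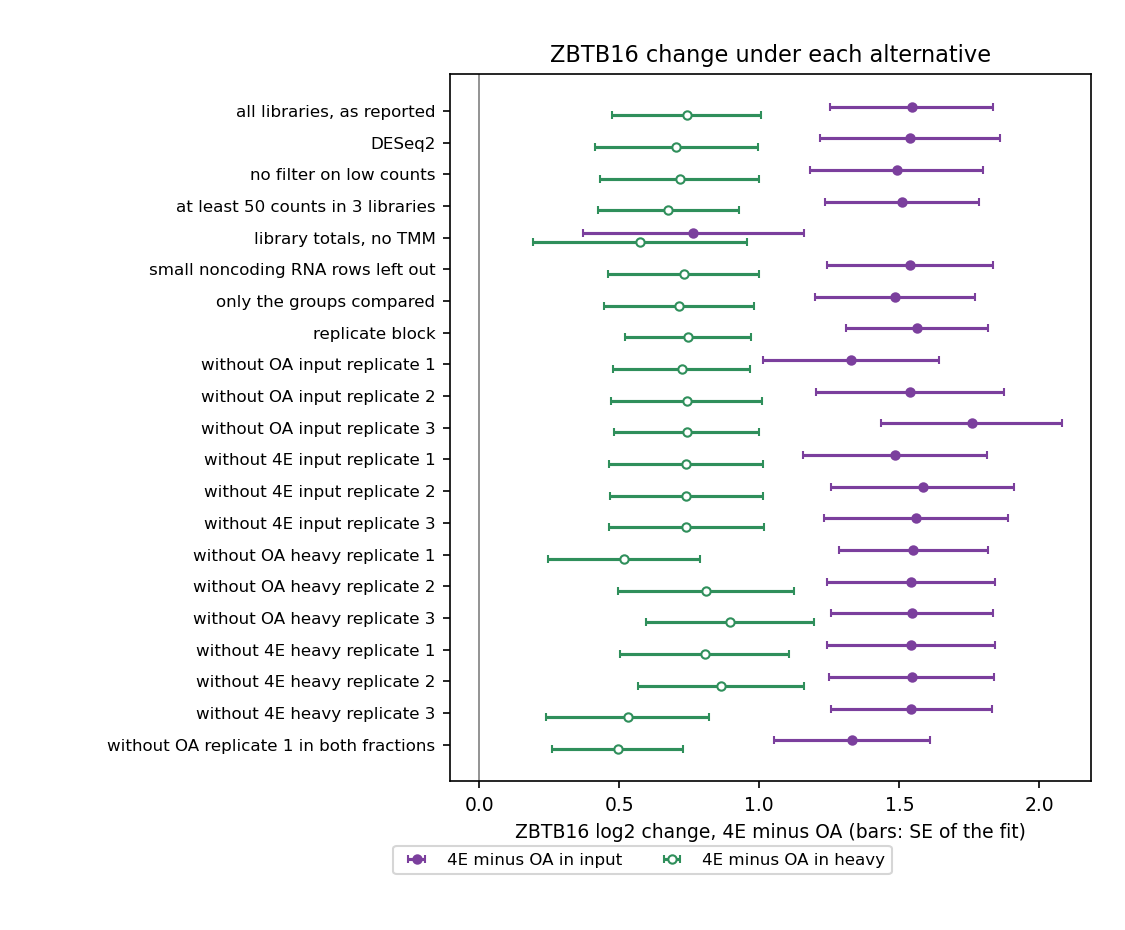
Fitted log2 change of ZBTB16, 4E minus OA (x axis), in input (filled) and heavy (open), for the fit as reported and each alternative (rows), with bars for the SE of the fit. All values lie above 0, input from 0.76 to 1.76 and heavy from 0.49 to 0.89.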

How the data were processed

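The deposited table holds read counts, as whole numbers, for each gene symbol in each of 12 libraries; 0 of its columns belonged to other samples. The table's name calls the values normalised, but totals differ between libraries and reads in no gene are listed, so they were handled as raw counts. The submitters' processing notes name Bowtie and mm9 without saying how each was used. For the counting tool, annotation and strand setting the sources used here say nothing. Reads in no gene or ambiguous, 16.4% to 31.4% per library, were left out. A RefSeq gene model without a row here, Gm32280, overlaps Zbtb16 on mouse chromosome 9, so reads of the pair may not be told apart. No gene coordinates are given, because the reference at hand is GRCm38. Log2 fold changes, p-values and a class were also deposited by the authors.

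Genes needed 10 counts or more in 3 or more libraries, which 7465 met; the test was that of edgeR 4.0.16, run in R 4.3.3 with TMM, glmQLFit and glmQLFTest in 1 fit of 4 group means to 12 libraries; p-values were adjusted over all tested genes (Benjamini-Hochberg, threshold 0.05). DESeq2 1.42.0 was an alternative. Permutation tests and exact intervals used SciPy 1.17.1. On simulated counts for 7465 genes in the heavy comparison, 9% of genes changed 2-fold and 64% of genes changed 4-fold were called. Gene lists, 12 with 252 symbols, and the member itself were chosen with earlier results of these data known. Named genes are the 5 most like ZBTB16, and in each list 3 tested members of highest mean CPM, those of smallest p in input and in heavy, and selected key genes; some genes that the rule names are not reported here, and further members given with values were chosen after their values were seen. Deviations of same-numbered input and heavy libraries had correlations of 0.669, 0.138 and 0.312 in OA and 0.100, 0.0162 and 0.0475 in 4E. The best match bore the same number for each 4E replicate, and in OA for all but replicate 2. Between OA and 4E it did so for each input replicate, and in heavy for all but replicate 2.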

Additional observations from a re-analysis of the deposited data

How the results depend on the processing

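ZBTB16 kept its direction between arms in all 20 alternatives in each fraction. Without TMM the input change was 0.76, the interaction -0.19, and the change from input to heavy 1.64 in OA and 1.45, reversed, in 4E; the median gene moved with it, and relative to that median ZBTB16 was at 1.68, -0.92, 0.41 and -0.51. Leaving out 1 library at a time gave 1.33 to 1.76 in input, 0.52 to 0.89 in heavy, -1.03 to -0.60 for the interaction, 0.12 to 0.54 in OA and -0.68 to -0.35 in 4E from input to heavy. The log2 ratio per T cell marker count was 1.26 to 1.78 in input and 0.28 to 0.82 in heavy, an alternative added after seeing the data. A replicate block gave same-numbered libraries of all 4 groups a shared term, although the numbers are not known to pair OA with 4E. With it ZBTB16 in heavy had a log2 change of 0.75 (edgeR adjusted p = 0.118). Genes called, 0 in each fraction as reported, numbered 71 in input and 27 in heavy with the replicate block, 3 and 1 with DESeq2, 113 and 50 with no filter on low counts, 1 and 1 without TMM, 17 and 8 without OA replicate 1 in both fractions, and 0 to 14 and 0 to 4 leaving out 1 library. The cause of these differences was not tested. Members of the 6 gene lists called stayed at 0 in all 20 alternatives. Of the 5 genes most like ZBTB16, 3 stayed among the closest 5 when levels were centred on each fraction and 4 by Spearman. The lowest ZBTB16 count, 28 in OA input replicate 2, sets the depth limit.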
